A study of Saccharomyces cerevisiae with 6 samples.

Results

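The 30 genes described here encode the enzymes that build ergosterol in the budding yeast Saccharomyces cerevisiae, together with genes for sterol esters, electron supply and transcriptional regulation of sterol synthesis. They were chosen by name, from the annotation of the array platform, and all 30 were found among the 5449 genes measured. The choice was made with earlier results of these data known, so counts set beside shares of all genes are descriptive. Each had 1 probe set, and all 30 lay above the background level on all 6 arrays. Their levels were compared between 3 arrays of a strain with GCN4 deleted and 3 arrays of the reference strain FY4, labelled wild-type. GCN4 encodes the main activator of genes for amino acid synthesis. Cultures of either strain were grown in batch in minimal medium with glucose at 30°C with shaking at 300 rpm, and were harvested in exponential growth at equal cell density. The labels do not give the parent of the deletion strain, the extent of the deletion, or whether replicates were separate cultures. The p-values therefore measure only the spread between these arrays, and every change is a difference between these 2 strains.

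Ergosterol is the main sterol of the yeast plasma membrane, and its synthesis falls into 3 stretches. The mevalonate steps turn acetyl-CoA into farnesyl diphosphate, which also feeds dolichol, ubiquinone, heme A and protein prenylation. A pair of farnesyl diphosphates is then joined to squalene, which is oxidised and closed into lanosterol, and the late steps trim and rearrange the sterol ring and side chain. Several of these reactions use molecular oxygen or heme, and the zinc cluster factors Upc2 and Ecm22 activate transcription of genes of the pathway. Surplus sterol is stored as esters in lipid droplets.

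GCN4 had normalised intensities of 18.5, 22.3 and 18.1 on the deletion arrays, against 23339, 18826 and 20142 on the wild-type arrays, a level lower by at least 283-fold (limma, adjusted p = 2.94e-07). MIT1, the nearest measured gene on one side of GCN4 and a transcription factor gene of pseudohyphal growth, likewise lay at background in that strain. Its intensities were 30.5, 27.8 and 41.5 on the deletion arrays and 3568, 3546 and 3718 on the wild-type arrays, so GCN4 was not the only gene near that place whose signal was lost. The mating receptor genes STE2 (a cells) and STE3 (alpha cells) had intensities of 19220 to 20454 and 155 to 160 in the deletion, against 16341 to 17799 and 181 to 196 in the wild-type. The median intensity of the 5449 genes was 2281 to 2341 on the deletion arrays and 2112 to 2206 on the wild-type arrays. As deposited, the median log2 change of all genes was 0.09, and centring each array on its median lowered every change by 0.10.

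Of the 30 sterol genes, 9 rose and 4 fell in the GCN4 deletion at an adjusted p under 0.05, and 17 did not pass. Over all genes tested, 24.6% were called higher and 7.67% lower, 32.2% in all. The genes that rose were the regulators UPC2, ECM22 and SUT1, the mevalonate genes HMG1, ERG8 and ERG13, the squalene synthase gene ERG9, the lanosterol synthase gene ERG7 and the late gene ERG5. The genes that fell were ERG3 and ERG24 of the late steps, the squalene epoxidase gene ERG1 and the sterol acyltransferase gene ARE1. The groups did not overlap for 10 genes that were higher and 6 that were lower, against 34.9% and 12.6% of all genes. No sterol gene changed by 2-fold, whereas 4.07% of all genes were called at that size. The median log2 change of the 30 genes was 0.03, beside 0.09 over all genes. The median absolute log2 change was 0.13 among sterol genes and 0.16 among all genes. The SD of the changes was 0.23 among sterol genes and 0.47 among all genes, the latter including extreme values such as that of GCN4 (-10.05). After centring, 5 sterol genes were called higher and 5 lower, against 14.3% and 12.9% of all genes. After quantile normalization the counts were again 5 and 5, against 13.7% and 15.4%. At a change of at least 1.2 times, 5 of the sterol genes rose and 2 fell, against 19.2% and 5.08% of all genes. In a bulk culture, a change in every cell and a change in a share of the cells cannot be told apart.

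**Figure D1:**
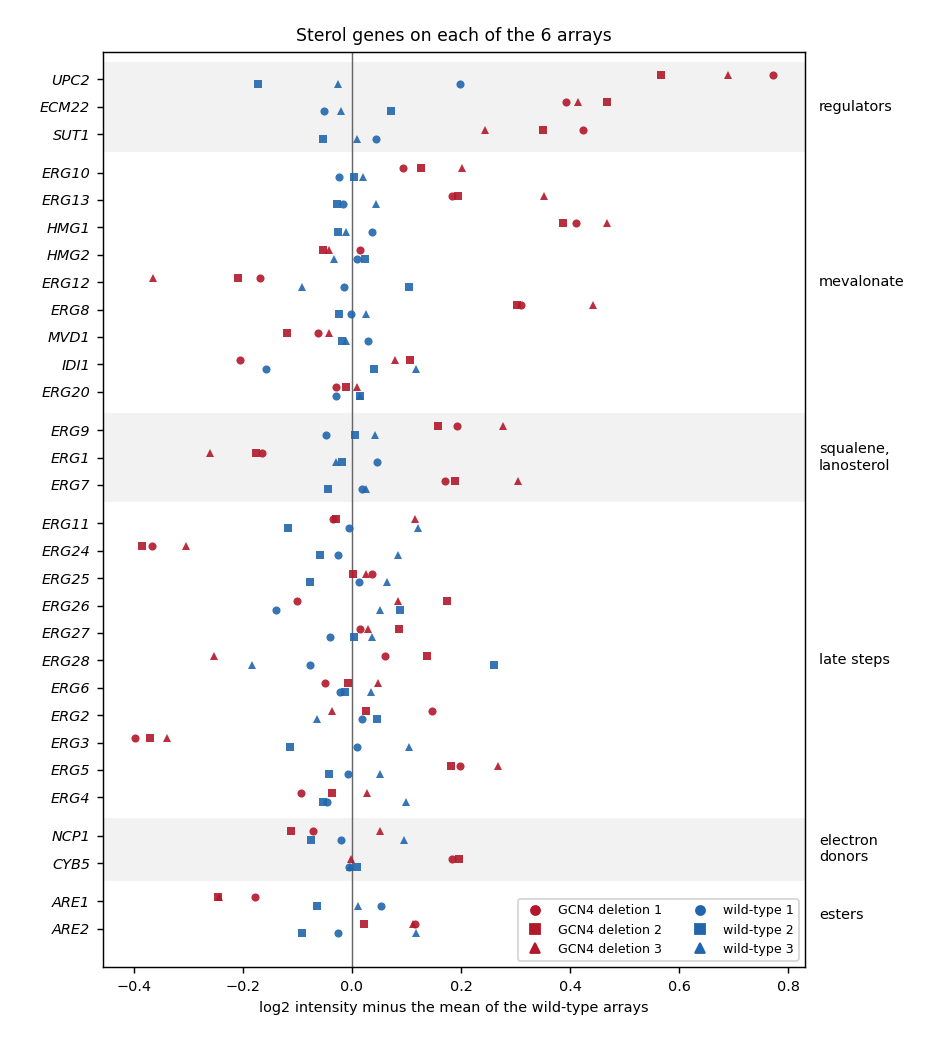
Log2 intensity of each sterol gene on each array (x axis), as the distance from the mean of the 3 wild-type arrays, with genes on the y axis grouped by role; GCN4 deletion arrays are red, wild-type arrays blue, and marker shapes show the replicate number. The red points of UPC2, ECM22, SUT1, HMG1 and ERG8 lie apart to the right of the blue ones, those of ERG3 and ERG24 apart to the left, and for most late genes both colours mix.

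All 3 regulator genes rose, against 24.6% of all genes. UPC2 (YDR213W), which encodes a sterol-sensing activator of sterol synthesis and uptake genes, had intensities of 1181, 1025 and 1115 on the deletion arrays and 794, 614 and 679.9 on the wild-type arrays. Every deletion array lay above every wild-type array, a 1.60-fold rise (log2 change 0.68, 95% interval 0.42 to 0.93, adjusted p = 0.00451). This was the largest change among the 30 genes, and it ranked 342 from the top among all 5449. ECM22 (YLR228C), the paralog of UPC2, had 2176, 2292 and 2209 in the deletion and 1599, 1742 and 1634 in the wild-type. It rose 1.34-fold with no overlap (log2 change 0.43, 95% interval 0.30 to 0.55, adjusted p = 0.00192). SUT1 (YGL162W), a zinc cluster factor gene that promotes sterol uptake when oxygen is short, had 2388, 2269.7 and 2109 in the deletion and 1836, 1718 and 1792 in the wild-type. Its rise was 1.26-fold (log2 change 0.34, 95% interval 0.19 to 0.49, adjusted p = 0.00823). The calls of these 3 genes held in all 15 alternatives run. After centring, the log2 changes of UPC2, ECM22 and SUT1 were 0.57, 0.32 and 0.24 (adjusted p of 0.0109, 0.00583 and 0.0409).

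Of the 9 genes of the mevalonate steps, 3 rose, 0 fell and 6 did not pass. The share called, 33.3%, was near the 32.2% of all genes. HMG1 (YML075C) encodes the HMG-CoA reductase isozyme that carries most of the activity in aerobic cells. Its intensities were 5896, 5800.3 and 6129.5 on the deletion arrays and 4546, 4357 and 4402 on the wild-type arrays. It rose 1.34-fold (log2 change 0.42, 95% interval 0.31 to 0.54, adjusted p = 0.00118), with the deletion arrays close together and well above the wild-type arrays. HMG2 (YLR450W), the isozyme known for its regulated degradation, had 4856, 4636 and 4669.8 in the deletion and 4840.2, 4885 and 4699 in the wild-type. These ranges overlapped, and the log2 change was -0.03 (95% interval -0.14 to 0.08, adjusted p = 0.707).

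ERG8 (YMR220W), phosphomevalonate kinase, had intensities of 8513, 8464 and 9322 in the deletion and 6857, 6759 and 6986 in the wild-type. It rose 1.28-fold (log2 change 0.35, adjusted p = 0.00454), a call that held in all 15 alternatives. ERG13 (YML126C), HMG-CoA synthase, had 9014, 9078 and 10130.1 in the deletion and 7841, 7784 and 8183 in the wild-type. It rose 1.18-fold (log2 change 0.24, adjusted p = 0.0268), a call that ended after centring (log2 change 0.14, adjusted p = 0.223), after quantile normalization (adjusted p = 0.0763), when the fit took in every non-control probe set (adjusted p = 0.0915), and without deletion replicate 2, wild-type replicate 1 or wild-type replicate 2 (adjusted p of 0.0542, 0.0882 and 0.0781).

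ERG12 (YMR208W), mevalonate kinase, stood just outside the threshold in the other direction. Its intensities were 3056, 2970.3 and 2668 on the deletion arrays and 3402, 3695 and 3225 on the wild-type arrays, without overlap. The log2 change was -0.25 (95% interval -0.43 to -0.06, adjusted p = 0.0529). With a block for the replicate number it passed (adjusted p = 0.0118), as it did after centring (log2 change -0.35, adjusted p = 0.0103). It stayed uncalled with every non-control probe set fitted (adjusted p = 0.133). Leaving out any 1 array also left ERG12 uncalled (adjusted p of 0.0502 to 0.135). The kinases of consecutive steps, ERG12 and ERG8, thus had changes of opposite sign. ERG10 (YPL028W), the acetoacetyl-CoA thiolase of the entry step, had 13199, 13509 and 14224 in the deletion and 12176, 12399 and 12549 in the wild-type. Its groups also did not overlap, with a log2 change of 0.14 (adjusted p = 0.0739) that passed with the block (adjusted p = 0.0368) and shrank to 0.04 after centring. MVD1, mevalonate diphosphate decarboxylase, IDI1, isopentenyl diphosphate isomerase, and ERG20, farnesyl diphosphate synthase, had log2 changes of -0.07, -0.01 and -0.01, and none of them passed (adjusted p of 0.273, 0.975 and 0.888). For ERG20 the interval was narrow, from -0.11 to 0.09.

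The 3 genes of the squalene and lanosterol steps passed the test with small changes of mixed sign, positive for ERG9 and ERG7 and negative for ERG1. Over all genes, 32.2% were called. ERG9 (YHR190W), squalene synthase, had intensities of 7446, 7269.7 and 7889 in the deletion and 6298, 6539 and 6709.7 in the wild-type, a 1.16-fold rise (log2 change 0.21, adjusted p = 0.0272). ERG1 (YGR175C), squalene epoxidase and the target of allylamine antifungals, had 9888, 9809 and 9249.5 in the deletion and 11443, 10947 and 10865 in the wild-type. It fell 1.15-fold (log2 change -0.20, adjusted p = 0.0263). ERG7 (YHR072W), lanosterol synthase, had 4231, 4287 and 4643 in the deletion and 3811, 3647 and 3829 in the wild-type, a 1.17-fold rise (log2 change 0.22, adjusted p = 0.0256). In each gene the groups did not overlap, and the 3 pairs of same-numbered arrays shared the direction. The calls of ERG9 and ERG7 ended after centring (adjusted p of 0.286 and 0.266), while ERG1 kept its call there (log2 change -0.30, adjusted p = 0.00785).

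These 3 calls also rested on having all 6 arrays. That of ERG1 ended on leaving out any one of them (adjusted p of 0.0503 to 0.0957). The call of ERG9 ended on leaving out any array other than the wild-type array numbered 3, with adjusted p of 0.0506 to 0.0978. The call of ERG7 ended on leaving out any array other than the deletion array numbered 1, with adjusted p of 0.0515 to 0.0778. When the fit took in every non-control probe set, the 3 genes had adjusted p of 0.0968 to 0.106, and after quantile normalization ERG9 and ERG7 had 0.0971 and 0.124.

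Among the 11 genes of the late steps, 2 fell, 1 rose and 8 did not pass. The share called was 27.3%, beside 32.2% of all genes. ERG24 (YNL280C), the sterol C-14 reductase that acts right after lanosterol demethylation, had intensities of 5034, 4967 and 5253 on the deletion arrays and 6377, 6231 and 6877 on the wild-type arrays. It fell 1.28-fold (log2 change -0.35, 95% interval -0.49 to -0.22, adjusted p = 0.00486). ERG3 (YLR056W), the C-5 desaturase, had 6592, 6716 and 6871 in the deletion and 8736, 8032 and 9334 in the wild-type. It fell 1.29-fold (log2 change -0.37, 95% interval -0.53 to -0.21, adjusted p = 0.00737), the lowest of the 30 genes and rank 218 from the bottom among all genes. Both genes had every deletion array below every wild-type array, and both calls held in all 15 alternatives.

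ERG5 (YMR015C), the C-22 desaturase, a cytochrome P450, had intensities of 9538, 9424 and 10002 in the deletion and 8265, 8069 and 8608 in the wild-type. It rose 1.16-fold (log2 change 0.22, adjusted p = 0.0201). The differences within same-numbered arrays were 0.21, 0.22 and 0.22, almost equal. Its call ended after centring (log2 change 0.11, adjusted p = 0.258), after quantile normalization (adjusted p = 0.0643), when the fit took in every non-control probe set (adjusted p = 0.0876), and without deletion replicate 1 or 3 or wild-type replicate 1 or 2 (adjusted p of 0.0528 to 0.0715).

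The other late genes had log2 changes close to 0. ERG11, the lanosterol demethylase and target of azole antifungals, had intensities of 14468, 14539 and 16063 in the deletion and 14769, 13679 and 16135 in the wild-type, and the groups overlapped. Its log2 change was 0.02 (95% interval -0.17 to 0.21, adjusted p = 0.896). The C-4 demethylation complex, made of the oxidase ERG25, the dehydrogenase ERG26, the reductase ERG27 and the scaffold ERG28, had log2 changes of 0.02, 0.05, 0.04 and -0.02, with adjusted p of 0.541 to 0.945. The methyltransferase gene ERG6 had -0.00, the isomerase gene ERG2 0.04 and the last reductase gene, ERG4, -0.03, with adjusted p of 0.65 to 0.975. The interval of ERG6 ran from -0.12 to 0.11, whereas that of ERG28 ran from -0.38 to 0.34, and from -0.18 to 0.14 with the replicate block. After centring, 10 of the 11 late genes had a negative change, and the calls were those of ERG24 and ERG3 alone.

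**Figure D2:**
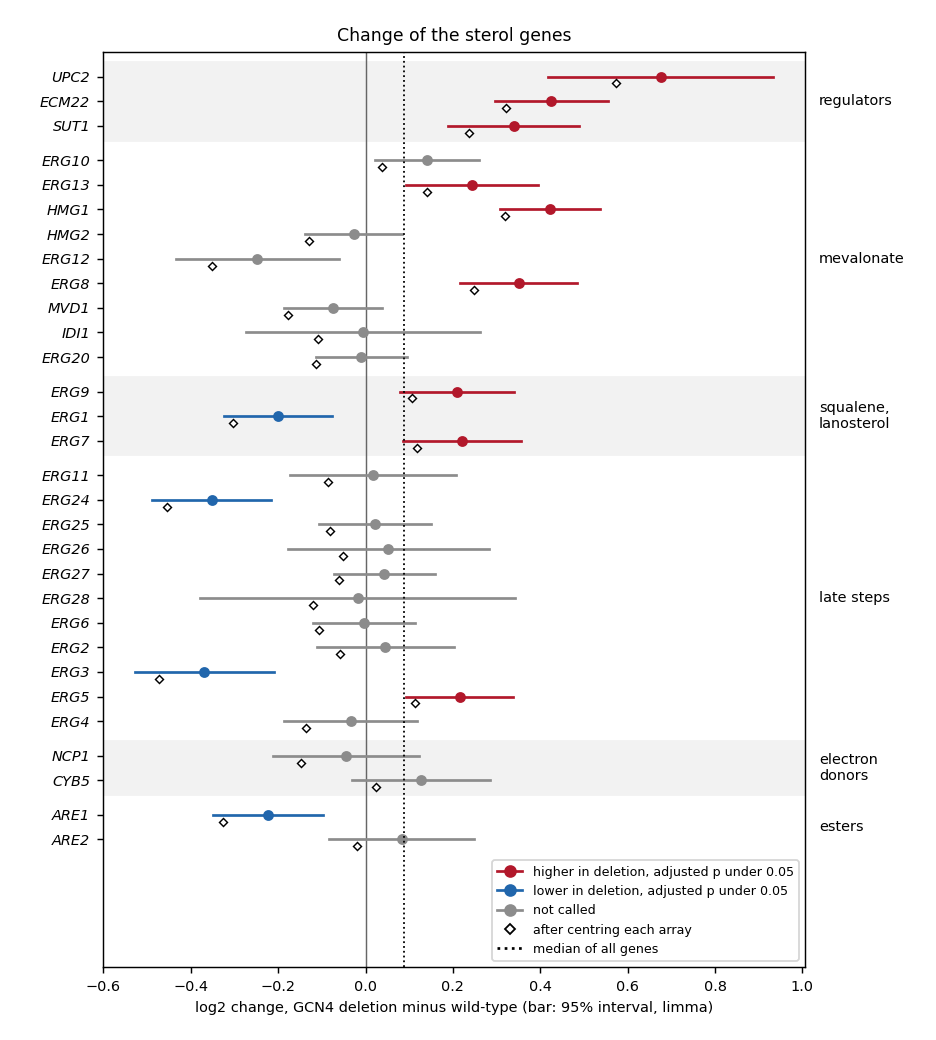
Log2 change (x axis, GCN4 deletion minus wild-type) of each sterol gene (y axis, by role) with its 95% interval from limma; red and blue mark genes called higher and lower, grey those not called, open diamonds the change after centring each array, and the dotted line the median of all genes, 0.09. The 3 regulators lie to the right, ERG24 and ERG3 lie furthest to the left, and every diamond sits 0.10 left of its point.

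Neither electron donor gene passed. NCP1, the cytochrome P450 reductase that serves Erg11 and Erg5, had intensities of 11999, 11658 and 13057 in the deletion and 12432, 11960.1 and 13457 in the wild-type, with a log2 change of -0.04 (adjusted p = 0.682). CYB5, cytochrome b5, had 3159, 3191 and 2780.5 in the deletion and 2773, 2800.0 and 2777 in the wild-type. Deletion replicates 1 and 2 stood above the wild-type and replicate 3 among it, and the log2 change was 0.13 (95% interval -0.03 to 0.28, adjusted p = 0.194). Without deletion replicate 3, CYB5 passed (adjusted p = 0.0352), as it did with array weights (adjusted p = 0.0436).

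Of the sterol acyltransferase genes, ARE1 (YCR048W), whose enzyme also esterifies sterol precursors, had intensities of 2671, 2548 and 2554 in the deletion and 3135, 2889.6 and 3045.5 in the wild-type. It fell 1.17-fold (log2 change -0.22, 95% interval -0.35 to -0.10, adjusted p = 0.0201), and after centring the change was -0.33 (adjusted p = 0.0104). The call ended without deletion replicate 2 or 3 or wild-type replicate 1 or 3 (adjusted p of 0.0549 to 0.0758), and when the fit took in every non-control probe set (adjusted p = 0.0851). ARE2 (YNR019W), the main ergosterol acyltransferase gene of aerobic cells, had 1131, 1060.0 and 1129 in the deletion and 1026, 979.7 and 1133 in the wild-type. The groups overlapped, with a log2 change of 0.08 (adjusted p = 0.41).

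The 3 paralog pairs were compared through the log2 gap between both genes of a pair on each array. A constant difference in brightness between 2 probe sets cancels in the shift of this gap between strains, but an effect that varies with level does not. The gap of HMG1 minus HMG2 was 0.28, 0.32 and 0.39 on the deletion arrays and -0.09, -0.16 and -0.09 on the wild-type arrays. It was thus higher in the deletion by 0.45 ± 0.04 (SE, n = 3 arrays per strain), and by 0.37, 0.49 and 0.49 within the same-numbered arrays. The gap of ARE1 over ARE2 was narrower in the deletion by 0.30 ± 0.06 (shift -0.30), with -0.37, -0.30 and -0.25 within the same-numbered arrays. In both pairs the exact permutation test, two-sided, gave p = 0.1, the smallest value that 3 arrays against 3 allow, and 0.15 adjusted over the 3 pairs. The shift for UPC2 over ECM22 was 0.25 ± 0.16, and p was 0.2 by the exact permutation test (0.2 adjusted). Within the same-numbered arrays it was 0.13, 0.34 and 0.28, positive in all 3. The shift of the means was 0.13 without wild-type replicate 2 and 0.38 without wild-type replicate 1.

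**Figure D3:**
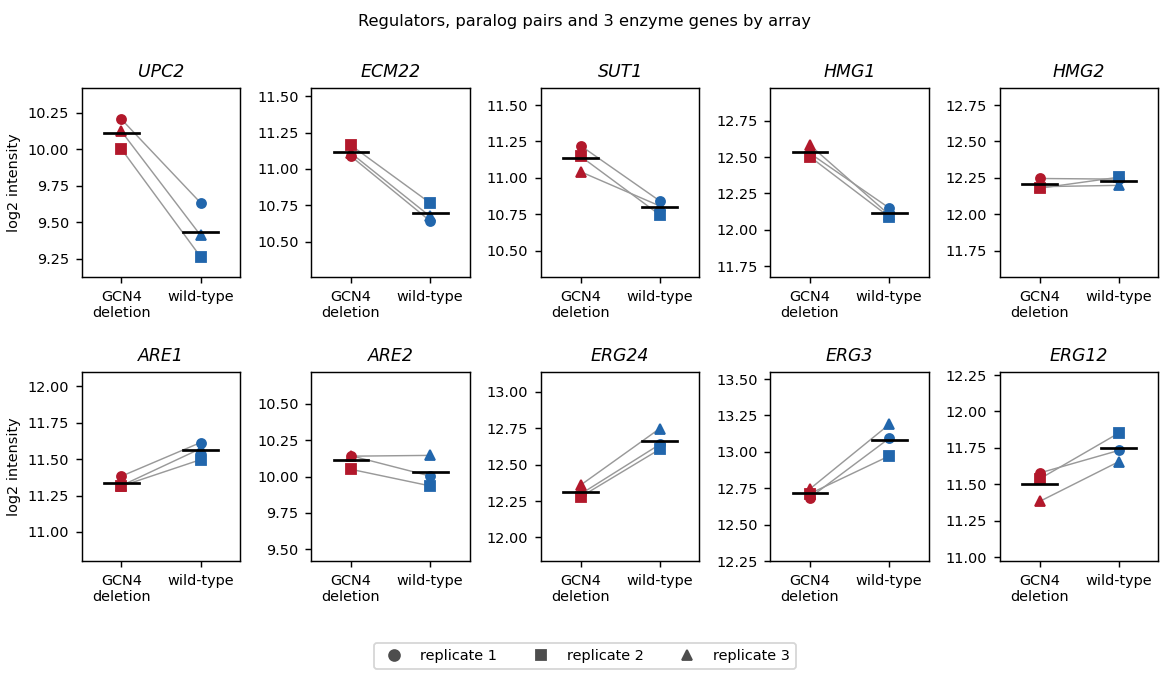
Log2 intensity (y axis, each panel spanning an equal range) of the 3 regulators, the HMG and ARE pairs, and ERG24, ERG3 and ERG12 on GCN4 deletion arrays (left, red) and wild-type arrays (right, blue); lines join arrays of the same number and bars are means of 3. HMG1 slopes in all 3 pairs while HMG2 is nearly level, and ERG24, ERG3, ERG12 and ARE1 lie lower in the deletion in all 3 pairs.

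The spread between arrays differed among the sterol genes, and in some of them it followed the replicate number. The median SD within a strain was 0.06 over the 30 genes and 0.09 over all genes. ERG28 varied most, with intensities of 4373, 4611 and 3516 in the deletion and 3972, 5023 and 3690.0 in the wild-type, lowest on the arrays numbered 3 in both strains. IDI1 had 6963, 8638 and 8477 in the deletion and 7193, 8252 and 8697 in the wild-type, lowest on the arrays numbered 1 in both. ERG26 had 4799, 5809.7 and 5456 in the deletion and 4673, 5471 and 5338 in the wild-type, again lowest on the arrays numbered 1. In NCP1 the SD was 0.09 within the deletion arrays and 0.09 within the wild-type arrays, while the differences between same-numbered arrays were -0.05, -0.04 and -0.04. In CYB5, by contrast, the differences between same-numbered arrays were uneven, at 0.19, 0.19 and 0.00. In 20 of the 30 sterol genes the 3 pairs shared a sign, but the share over all genes was not counted, so this number has no baseline. With the replicate number as a block, 10 sterol genes were called higher and 5 lower, the additions being ERG10 and ERG12, against 35.3% and 12.2% of all genes.

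Genes next to the sterol pathway were described through 7 lists holding 90 measured genes, of which 29 rose and 6 fell (24.6% and 7.67% over all genes). Their median log2 change was 0.11. After centring, 18 were called higher and 16 lower, against 14.3% and 12.9% of all genes. Unless stated, the counts by list below are as deposited, and stand beside 24.6% higher and 7.67% lower over all genes. Counts given after centring stand beside 14.3% and 12.9%. With the block the shares of all genes were 35.3% and 12.2%, and after quantile normalization 13.7% and 15.4%. The list of sterol uptake, ester hydrolysis, acetylation and transport held 24 genes, of which 7 rose and 3 fell. After centring, 6 were called higher and 4 lower. AUS1, an ABC transporter gene of anaerobic sterol uptake and a known Upc2 target, had log2 levels of 10.44, 10.44 and 10.32 in the deletion and 11.25, 11.28 and 11.29 in the wild-type. It fell 1.83-fold (log2 change -0.87 ± 0.05 SE, adjusted p = 8.84e-05), opposite in sign to UPC2 and SUT1. PDR11, the second transporter gene of sterol uptake, fell 1.35-fold (log2 change -0.44, adjusted p = 0.00345). TGL1, a steryl ester hydrolase gene, had a log2 change of -0.20 (adjusted p = 0.0299), and lost its call when any one array other than wild-type replicate 3 was left out (adjusted p of 0.064 to 0.0905). YEH1, another steryl ester hydrolase gene, rose 1.51-fold (adjusted p = 0.00385).

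The same list held genes of sterol acetylation and export. PRY2, which encodes a secreted sterol-binding protein, had log2 levels of 13.29, 13.24 and 13.39 in the deletion and 12.52, 12.45 and 12.50 in the wild-type. It rose 1.76-fold (log2 change 0.82, adjusted p = 0.00017). ATF2, the sterol acetyltransferase gene, rose 1.62-fold (log2 change 0.69, adjusted p = 0.000728). PRY1, the paralog of PRY2, did not pass, with a log2 change of -0.11 (adjusted p = 0.369). The calls of AUS1, PDR11, YEH1, PRY2 and ATF2 held in all 15 alternatives.

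Heme is needed by Erg11, Erg5 and cytochrome b5, and 3 of 9 genes of heme synthesis and breakdown rose while 0 fell. The share called, 33.3%, was near the 32.2% of all genes. HMX1, heme oxygenase, had log2 levels of 9.66, 9.54 and 9.39 in the deletion and 8.13, 8.21 and 7.98 in the wild-type, a 2.68-fold rise (log2 change 1.42, adjusted p = 0.000118). HEM13, coproporphyrinogen oxidase, whose transcription is known to rise when oxygen or heme is short, rose 1.52-fold (log2 change 0.60, adjusted p = 0.000339), and HEM2 rose 1.24-fold (adjusted p = 0.00258). A further list of 7 genes, made of regulators tied to oxygen, heme and sterols and of the fatty acid desaturase gene OLE1, had 2 that rose and 1 that fell. After centring, 1 was called higher and 3 lower, and with the block 3 and 3. SUT2, the paralog of SUT1, rose 1.47-fold (log2 change 0.56, adjusted p = 0.000563), which was also the sign of SUT1. SPT23 rose 1.22-fold (adjusted p = 0.0163) and MGA2, its paralog, fell 1.21-fold (adjusted p = 0.0244). Both encode activators of OLE1, which had a log2 change of -0.27 (adjusted p = 0.066) and was called lower with the block (adjusted p = 0.0149) and after centring (adjusted p = 0.0398). The call of SPT23 ended after centring (adjusted p = 0.129) and without wild-type replicate 1 (adjusted p = 0.0595). That of MGA2 ended without deletion replicate 1 or 2 or wild-type replicate 1 or 3 (adjusted p of 0.0589 to 0.073).

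Among 6 genes for cofactors and chaperones of sterol enzymes, 3 rose and 0 fell, against 24.6% and 7.67% of all genes. MCR1, mitochondrial NADH-cytochrome b5 reductase, rose 1.54-fold (log2 change 0.62, adjusted p = 0.000727). ERG29, which acts in ergosterol synthesis at the endoplasmic reticulum, rose 1.25-fold (adjusted p = 0.00267), and CBR1, the microsomal cytochrome b5 reductase, 1.11-fold (adjusted p = 0.0347). The call of CBR1 ended after centring (adjusted p = 0.529) and without any one of the 6 arrays (adjusted p of 0.0765 to 0.12). NSG1 and NSG2, whose products stabilise HMG-CoA reductase, had log2 changes of -0.05 and -0.04 and did not pass. DAP1, a heme protein that aids Erg11, had a log2 change of 0.44 (adjusted p = 0.103) and passed in the blocked fit (adjusted p = 0.00166).

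The branches that leave farnesyl diphosphate held 15 genes, of which 5 rose and 0 fell. The share called, 33.3%, was near the 32.2% of all genes. SRT1, a cis-prenyltransferase gene of dolichol synthesis, had log2 levels of 8.11, 8.27 and 7.96 in the deletion and 6.68, 7.05 and 6.85 in the wild-type, a 2.38-fold rise (log2 change 1.25, adjusted p = 0.000617). Its wild-type signal was near the background levels of those arrays (log2 6.61, 6.28 and 6.49), so the size of this rise is uncertain. LPP1, a lipid phosphate phosphatase gene, rose 1.46-fold and BET4, a protein prenyltransferase subunit gene, 1.30-fold (adjusted p of 0.000871 and 0.0465), with CDC43 and COX10 at 1.15-fold and 1.12-fold. The call of COX10 ended without any one of the 6 arrays, and those of BET4 and CDC43 without any one other than the wild-type array numbered 3, at adjusted p of 0.0548 to 0.15 over the 3 genes. After centring, 2 of the 15 were called higher and 3 lower, and with the block 6 and 2.

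Of 8 genes of azole response and drug efflux, 4 rose and 1 fell, against 24.6% and 7.67% of all genes. YOR1 and PDR1, an efflux pump gene and the main activator gene of such pumps, rose 1.33-fold and 1.26-fold (adjusted p of 0.00461 and 0.00224), SNQ2 1.21-fold and PDR5 1.18-fold. RSB1, a gene of sphingoid base translocation, fell 1.80-fold (log2 change -0.85, adjusted p = 0.000584). After centring, the calls of SNQ2 and PDR5 ended (adjusted p of 0.143 and 0.158), and that of SNQ2 ended without wild-type replicate 1 or 2 (adjusted p of 0.0629 and 0.0556). Over the 8 genes, 2 were called higher and 2 lower after centring, and 4 and 2 with the block. Of 21 sphingolipid genes, 5 rose and 1 fell. Both after centring and after quantile normalization, 2 of them were called higher and 4 lower, and with the block 6 and 3. YPC1, an alkaline ceramidase gene, rose 1.53-fold (adjusted p = 0.0181), SUR2, the sphingoid base hydroxylase gene, 1.28-fold (adjusted p = 0.00325), and ORM2, a regulator of serine palmitoyltransferase, 1.26-fold (adjusted p = 0.0449, and 0.105 after centring). DPL1 and IPT1 rose 1.18-fold and 1.19-fold, and SCS7 fell 1.17-fold. The calls of DPL1 and IPT1 ended after centring (adjusted p of 0.207 and 0.134) and after quantile normalization (adjusted p of 0.0843 and 0.0573), whereas SCS7 kept its call in both. With every non-control probe set fitted, the calls of DPL1, IPT1 and SCS7 ended (adjusted p of 0.0831, 0.0517 and 0.0619). The call of YPC1 ended without deletion replicate 2 (adjusted p = 0.0613), that of DPL1 without wild-type replicate 1 or 2 (adjusted p of 0.0772 and 0.0631), and that of ORM2 without any one array other than the deletion array numbered 3, at adjusted p of 0.0736 to 0.119. In both the sphingolipid and the sterol genes the share called, 28.6% and 43.3%, stood beside 32.2% of all genes.

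**Figure D4:**
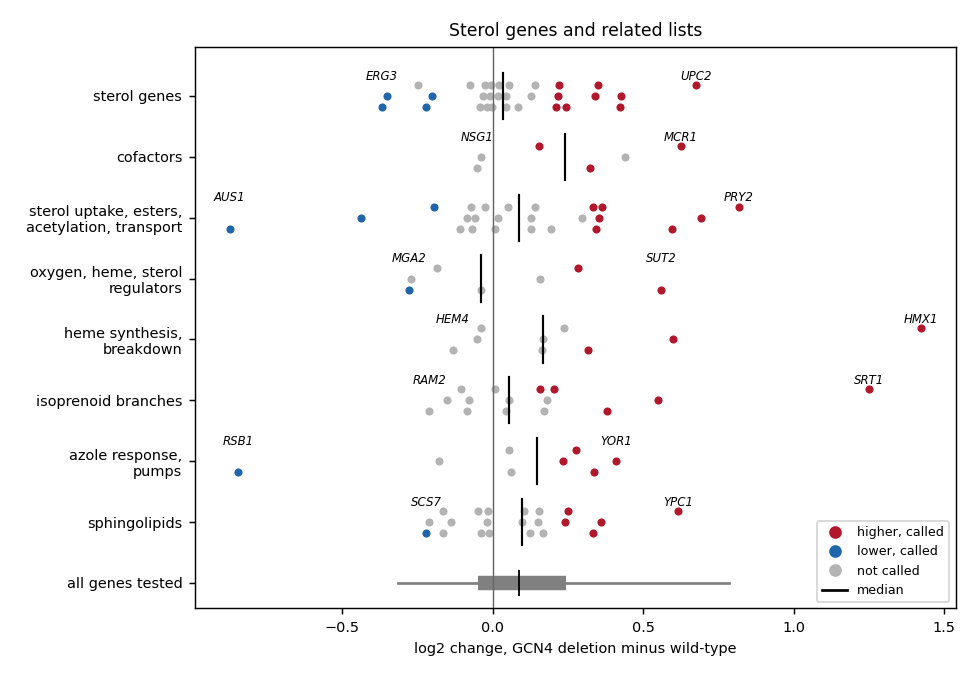
Log2 change (x axis, GCN4 deletion minus wild-type) of each gene of the sterol list and of 7 related lists (rows), coloured by call, with the median of each list as a black line; the bottom row shows all genes tested, with a thick bar from the 25th to the 75th percentile and a thin one from the 5th to the 95th. Sterol genes lie between -0.37 and 0.68, whereas AUS1 and RSB1 lie at -0.87 and -0.85 and HMX1 and SRT1 at 1.42 and 1.25.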

How the data were processed

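Per the labels' protocols, RNA from 3 GCN4 deletion and 3 wild-type samples was reverse-transcribed, amplified in vitro with biotin and hybridised to Affymetrix arrays. The authors deposited normalised intensities on a linear scale, 9.03 to 35044, and the submitters' processing notes name R 2.8.0, affy and RMA, without their role or order. Intensities were converted to log2 values here without a pseudocount. The platform's annotation named the probe sets, and the R64 gene table updated the symbols. Where a gene had several probe sets (47 genes), the one with the highest mean was used, which left 5449 genes. The background level of an array was the 95th percentile of 1746 probe sets of another species. Only 3 arrays per strain limit the precision.

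Strains were compared with limma 3.58.1 in R 4.3.3 (two-sided, deletion minus wild-type, without covariates, Benjamini-Hochberg adjustment over all genes, threshold 0.05), tested on simulated data. SciPy 1.17.1 gave the permutation tests, and matplotlib 3.10.9 the figures. The members and lists were chosen with earlier results of these data known. Named were all 30 sterol genes, GCN4, and up to 3 called members of each related list. MIT1, PDR11, TGL1, YEH1, CDC43, COX10, SNQ2, PDR5, DPL1, IPT1, SCS7, DAP1, NSG1, NSG2, OLE1 and PRY1 were named after their values were seen. STE2 and STE3 were the label check. A motif search in promoters was planned and not run, as promoter sequence was not used here.

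Same-numbered arrays of both strains deviated together from their group means (r of 0.69, 0.53 and 0.71), so the replicate numbers were taken to pair the samples in the blocked fit. The main fit, which gave the calls and intervals unless stated, ignored this pairing. Deletion replicate 1 and wild-type replicate 2 also correlated, with r of 0.23. The labels give only numbers, so the pairing comes from the data. For the named genes, the blocked value is given where it changes a call.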

Additional observations from a re-analysis of the deposited data

How the results depend on the processing

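Each result was recomputed under 15 alternatives of scaling, filtering, probe sets, test, replicate block and left-out arrays. No called sterol gene changed sign, 7 of the 13 calls held throughout (UPC2, ECM22, SUT1, HMG1, ERG8, ERG24 and ERG3), and 14 of the 17 uncalled genes stayed uncalled. The count of sterol genes higher in the deletion was 9, and 5 after centring, after quantile normalization, with every non-control probe set fitted, or at a change of at least 1.2 times. The count lower was 4, and 2 with every non-control probe set fitted or at 1.2 times. Leaving out 1 array gave 5 to 8 higher and 2 to 3 lower. It gave 5 higher without wild-type replicate 1 or 2, and 2 lower without deletion replicate 2 or 3 or wild-type replicate 1 or 3. With the replicate number as a block, 10 were higher and 5 lower, which added ERG10 and ERG12 and changed no other sterol call. Of the 90 related genes, 29 were higher, and 19, 18 and 19 after quantile normalization, centring and with every non-control probe set fitted. The count lower was 6, and 16, 16, 14, 12 and 13 after quantile normalization, centring, cyclic loess, array weights and the replicate block, and 3 with every non-control probe set fitted. Over all genes, 24.6% were called higher, and 13.7% and 14.3% after quantile normalization and centring. The share called lower was 7.67%, and 15.4%, 12.9% and 12.2% after quantile normalization, after centring and with the block. Centring and quantile normalization lower every gene's or most genes' change, by 0.10 at the median. Otherwise the cause of these shifts was not tested. The paralog shifts kept their sign in all alternatives run for them. The motif length was not run.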
